A study of Mus musculus with 3 samples.

Results

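The Kruppel-like factors examined here were Klf2, Klf3, Klf4, Klf5, Klf6, Klf9, Klf10 and Klf13, 8 of the 51912 genes in the features list, chosen by name and matched by symbol. All 8 had UMIs (unique molecular identifiers, 1 per captured transcript) in each library. They were measured by scRNA-seq in mouse intestinal epithelium, in 2 libraries from Arid3a cKO mice (VillinCreERT2, Arid3a fl/fl) and 1 from a WT control (VillinCreERT2 alone). VillinCreERT2 is a tamoxifen-activated recombinase driven by an epithelial promoter. Mice of both genotypes carried it and received tamoxifen at 8 to 10 weeks of age, and intestines were taken 1 month after the first dose. Crypt cells were sorted as living, Epcam-positive, CD45-negative and CD31-negative. The design states a pair of biological replicates for each genotype, and 1 WT library was analysed here. Every genotype comparison below therefore rests on a single WT library.

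Kruppel-like factors are zinc finger proteins that bind GC-rich and CACCC-type DNA. In the gut epithelium, Klf5 is known from proliferating crypt cells and Klf4 from goblet cells and differentiated villus cells. Klf2 is best known for quiescence of endothelial cells and T cells, Klf3 as a repressor that recruits Ctbp proteins, Klf9 as a gene induced by glucocorticoids, Klf10 as a gene induced early by TGF-beta, Klf6 as a widely expressed injury-induced factor, and Klf13 as a close relative of Klf9.

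Cells with at least 1000 detected genes and at most 15% mitochondrial UMIs numbered 2134 and 1550 in the cKO libraries by number and 1910 in WT, 21.9% of 25554 barcodes. Their median depth ranged from 29895 to 35764 UMIs. The share of barcodes kept was 31.2% and 22.5% in the cKO libraries and 16.2% in WT, the lowest. Kept cells had a median of 4.64% and 4.07% mitochondrial UMIs in the cKO libraries and 5.52% in WT, the highest. The part of this difference in the genotype comparisons was not tested. Libraries shared 11 to 18 barcodes, of which 0 to 2 were kept on both sides. Clusters were named from marker genes, with the Klf genes left out of the clustering, as ISC-like (1072 cells), TA-like (727), enterocyte-like (2160), goblet-like (392), enteroendocrine-like (175), tuft-like (98) and Paneth-like (80). A cluster of 757 cells led by Ccl20, Krt19 and Edn2 met no class and is called Ccl20-led, and 133 cells led by Gm42418 with a median of 11.8% mitochondrial UMIs stayed unnamed. Arid3a, which checks the labels, stood at 0.592 and 0.894 CPM (UMIs of the gene per 1000000 UMIs of the same cells) in the cKO libraries and 2.57 in WT (log2 fold change -1.76 ± 0.30 SE, edgeR quasi-likelihood test, adjusted p = 0.0447). DESeq2 did not call it (adjusted p = 0.162). Which part of the gene is deleted is not given in the sources used here, so the counted 3′ end may lie outside it.

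Promoter sequence was read for the members on which the results below turn most. Klf4 showed the widest range of CPM between classes, Klf2 the single genotype difference of a member past the threshold at the settings used here, and Klf9 the smallest unadjusted p over all cells. Each stretch runs from 190 to 41 bases before the RefSeq start site (GRCm38.p6), and capitals mark the CACCC box, the GC box GGGCGG or a MEF2-type motif (CTA, 4 bases of any kind, then TAG) on either strand.
Klf2, chr8:72318872-72319021, plus strand: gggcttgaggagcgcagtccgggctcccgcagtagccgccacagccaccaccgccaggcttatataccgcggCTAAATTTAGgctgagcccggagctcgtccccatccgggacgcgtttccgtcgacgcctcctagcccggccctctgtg
Klf4, chr4:55532516-55532665, minus strand: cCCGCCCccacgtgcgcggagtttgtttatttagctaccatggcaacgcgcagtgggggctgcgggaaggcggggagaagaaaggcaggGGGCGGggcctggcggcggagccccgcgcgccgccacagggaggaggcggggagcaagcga
Klf9, chr19:23141036-23141185, plus strand: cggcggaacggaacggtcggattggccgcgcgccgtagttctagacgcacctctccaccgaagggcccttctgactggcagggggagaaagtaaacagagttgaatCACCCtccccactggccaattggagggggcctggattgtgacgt
The Klf2 stretch held 1 MEF2-type match, a motif found in 3.2% of 32851 promoters over the 250 bases before the start, and no other of the 6 members with a promoter sequence held one in that window. The Klf4 stretch held 2 GGGCGG matches, and this motif was in 32.7% of promoters. A single CACCC marked the Klf9 stretch, against 52.0% of promoters over 250 bases. All 6 promoters were rich in G and C, from 59.6% for Klf9 to 78.4% for Klf3, with a median of 52.4% over all promoters. A match describes the letters only.

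The genes lie on 8 different chromosomes, and all are protein-coding in GENCODE M21 (GRCm38). Klf4 spans chromosome 4, 55527143 to 55532466 on the minus strand, Klf2 chromosome 8, 72319033 to 72321656 on the plus strand, and Klf5 chromosome 14, 99298691 to 99315036 on the plus strand. Klf6 spans chromosome 13, 5861482 to 5870394, Klf3 chromosome 5, 64803388 to 64832901, and Klf9 chromosome 19, 23141226 to 23168134, each on the plus strand. Klf10 (chromosome 15, 38291463 to 38300706) and Klf13 (chromosome 7, 63886351 to 63938915) are on the minus strand.

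Over all epithelial cells the family was led by Klf6 and Klf5. The summed level of the 8 genes was 1006 and 906 CPM in the cKO libraries and 873 in WT. Klf6 alone made up 31.4% to 33.2% of it, at 318 and 285 CPM in the cKO libraries and 289.9 in WT. Each transcript is counted once near its 3′ end, so levels of different genes were compared without scaling for length. Where 3 values are given together below, the first 2 are the cKO libraries by number and the last is WT. Next came Klf5 (255, 216 and 201 CPM), then Klf4 (115, 126 and 126) and Klf3 (114, 102 and 96.5). Klf13, Klf2, Klf10 and Klf9 each lay between 31.4 and 62.6 CPM. Of 19 other KLF and SP factors, 18 were in the features list. Sp3 (41.9 CPM, mean of 3 libraries) and Sp1 (32.9 CPM) were the highest of them, Klf7, Sp5 and Klf11 lay between 13.5 and 18.6 CPM, and Klf14, Sp7 and Sp8 had no UMI.

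**Figure D1:**
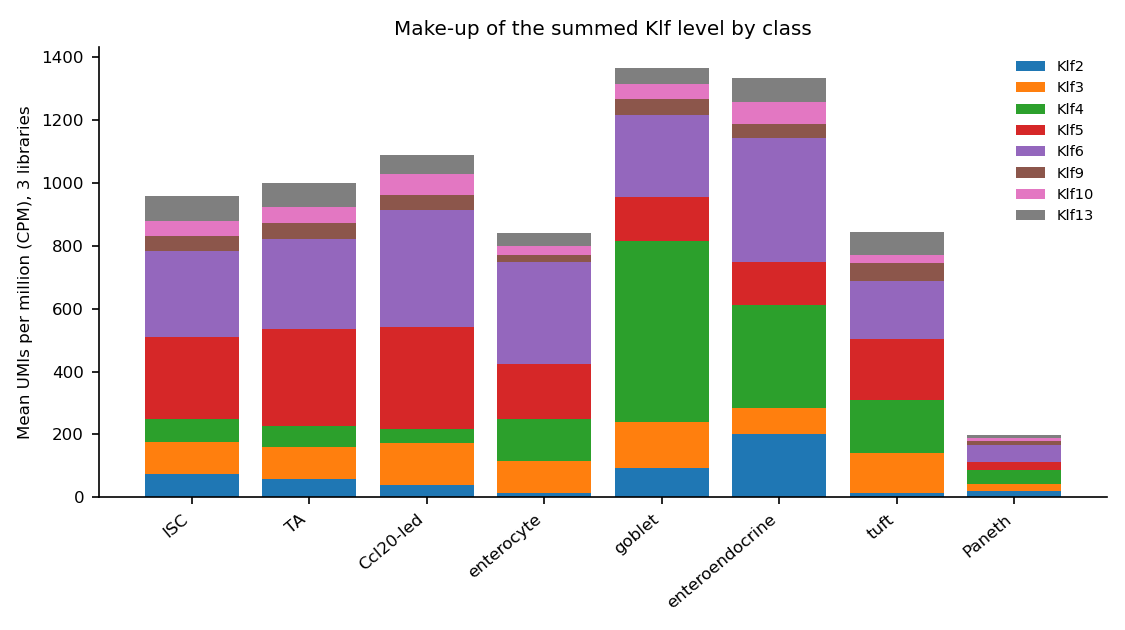
Summed level of the 8 Klf genes by class of cell, as stacked mean CPM over 3 libraries (vertical axis, in CPM from 0). Klf4 takes the largest part of the goblet bar and Klf5 with Klf6 most of the ISC, TA and Ccl20-led bars, and the Paneth bar is the lowest.

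The make-up of the family differed by class. In goblet-like cells Klf4 led, with 40.2% to 43.4% of the family total in the 3 libraries. In TA-like cells Klf5 led, with 29.97% to 31.8%. Klf6 led in ISC-like, Ccl20-led and enterocyte-like cells of every library, with its highest share in enterocytes of WT (41.4%). Class levels are described below without a test, because the classes were cut from the same cells.

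Klf4, the goblet and villus factor, had the widest range in CPM, from 573 to 45.6 as means of 3 libraries. Goblet-like cells held 667, 527 and 526 CPM. Enterocyte-like cells held 115, 146 and 137 CPM, and the lowest goblet value was above the highest enterocyte value. The goblet mean was 8.1-fold that of ISC- and TA-like cells together (log2 difference 2.93 ± 0.06 SD on CPM + 5, n = 3) and 4.33-fold that of enterocytes. Enteroendocrine-like cells came second at 205, 425 and 355 CPM, with the cKO libraries further from each other than either was from WT. Tuft-like cells followed (mean 167 CPM), then enterocytes (133), ISC (73.4) and TA (68.4). ISC and TA overlapped, as did TA, Paneth and Ccl20-led cells in that order. As a gauge of free RNA, 9 goblet markers summed to 239480, 247840 and 243380 CPM in goblet-like cells and to 262, 484 and 984 CPM in enterocytes.

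Klf5, the crypt factor, had its highest mean in Ccl20-led cells, the class with the lowest Klf4 mean. Paneth-like cells, next lowest for Klf4 (47.0 CPM), had the lowest Klf5 mean (26.0 CPM). Ccl20-led cells held 362, 312 and 295 CPM, TA-like cells 342, 309 and 274, and ISC-like cells 301, 245 and 235. These 3 classes overlapped with their neighbours in the order. All 3 lay above enterocytes (198, 160.3 and 167 CPM) in every library, and the enterocyte mean was 0.616 times that of ISC- and TA-like cells. Goblet-like (140.5 CPM) and enteroendocrine-like cells (134 CPM) overlapped each other below enterocytes.

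Klf6, the injury-induced member, was more even. Its means ran from 395 CPM in enteroendocrine-like cells through 372 in Ccl20-led cells and 325 in enterocytes to 261 in goblet-like cells, and every neighbouring pair in that run overlapped. Tuft-like cells stood below them at 184 CPM. Klf3, the Ctbp-recruiting repressor, was likewise even outside Paneth-like cells, from 149 CPM in goblet-like to 83.5 in enteroendocrine-like cells, with overlap at each step.

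Klf2, the quiescence factor, ran from a mean of 201 CPM in enteroendocrine-like cells to 14.0 in enterocytes. Enteroendocrine-like cells held 230.2, 143 and 229.8 CPM. Goblet-like cells held 124, 80.5 and 71.4 CPM, all below the lowest enteroendocrine value. ISC-like cells (mean 73.2 CPM, overlapping goblet-like cells) and TA-like cells (59.3) came next, and these did not overlap each other. Enterocytes stood at 18.6, 13.6 and 9.86 CPM, 0.211 times the mean of ISC- and TA-like cells (log2 difference -1.93 ± 0.21 SD on CPM + 5, n = 3). Tuft-like values rested on 7, 11 and 1 UMIs and cannot be placed.

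Klf9, Klf10 and Klf13 shared a lower level in enterocytes. Klf9, the glucocorticoid-induced member, stood at 22.6, 22.2 and 19.9 CPM in enterocytes and had means of 45.8 to 59.2 CPM in the 6 classes above them. Klf13 had means of 77.2 CPM in ISC-like and 77.3 in TA-like cells and 39.7 in enterocytes. Klf10, the TGF-beta-induced member, was highest in enteroendocrine-like (69.5 CPM) and Ccl20-led cells (66.96), which overlapped, and stood at 30.1 CPM in enterocytes. For these 3 genes the enterocyte mean was 0.428, 0.513 and 0.612 times that of ISC- and TA-like cells (Klf9, Klf13 and Klf10), lower in 3 of 3 libraries each.

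Paneth-like cells had the lowest level of 6 members and near the lowest of Klf2 and Klf4. These cells held 4.12 times the median UMIs of their libraries, so CPM and UMIs per cell part ways there. For Klf4, CPM was 63.1, 38.1 and 39.8, while UMIs per 100 cells were 668, 571 and 448, above the 368, 505 and 422 of enterocytes. Only 17 of these cells came from Arid3a cKO 2.

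**Figure D2:**
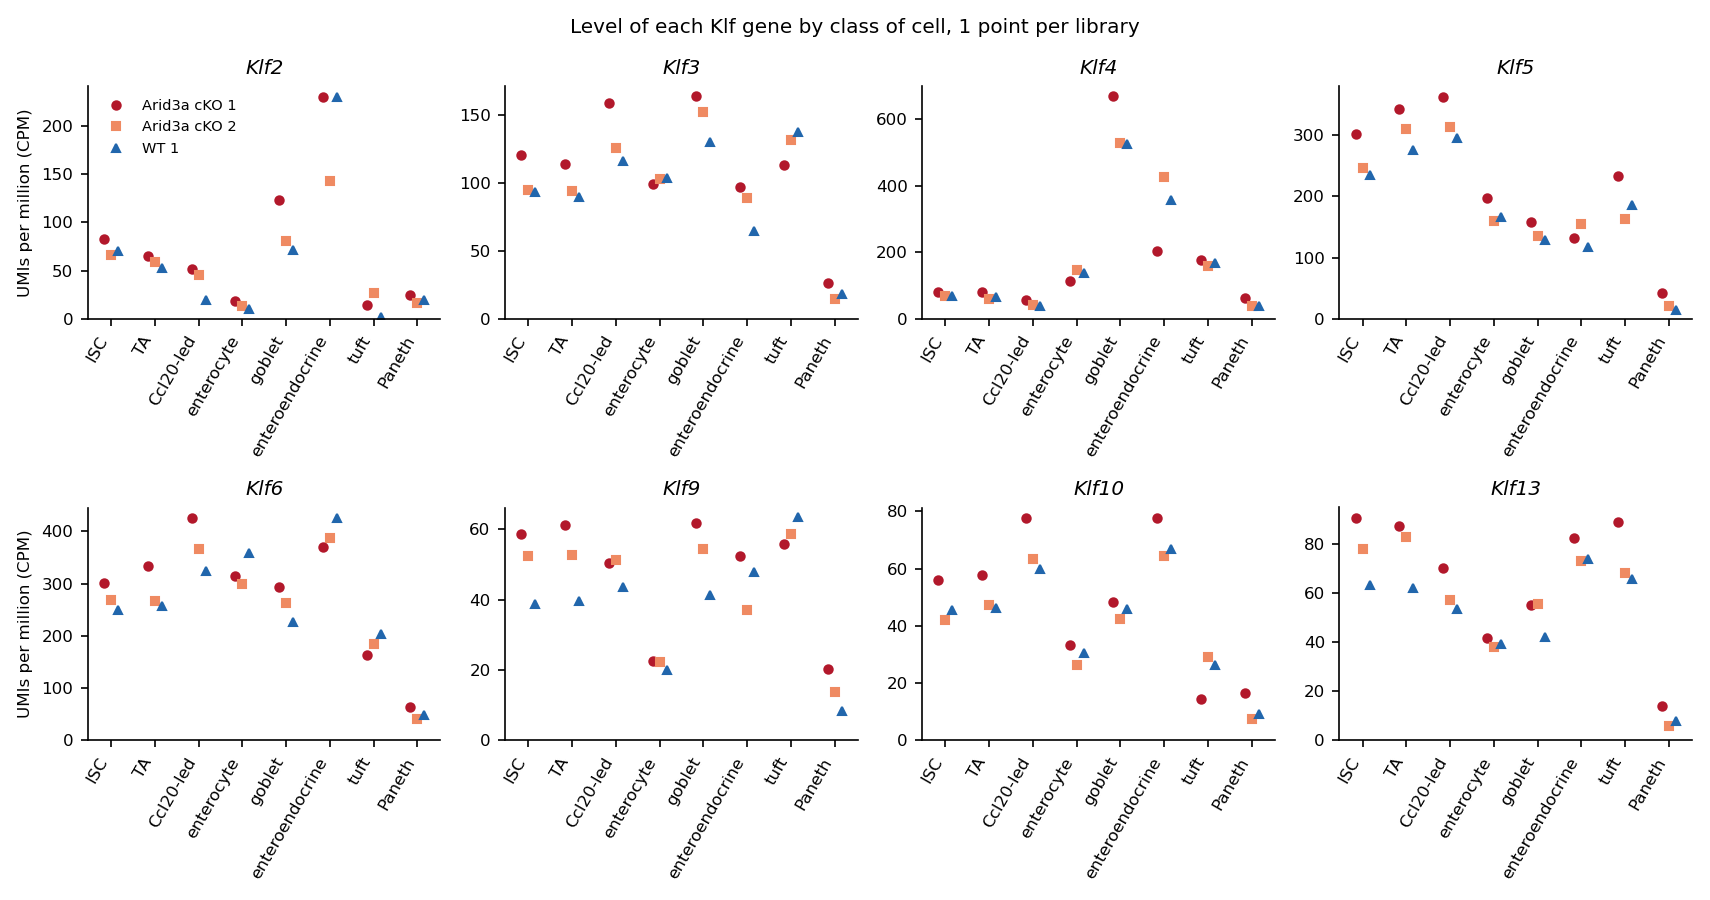
CPM of each Klf gene (vertical axes, from 0, each gene on its own scale) in 8 classes of cell, 1 point for each of the 3 libraries. Klf4 is highest in goblet-like cells, Klf5 in Ccl20-led and TA-like cells, and Klf2 and Klf9 are low in enterocytes.

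Cells of the ISC-, TA- and enterocyte-like classes were ordered by the first principal component of their integrated expression and split into 5 bins of 791 or 792 cells. The first bin was 73.1% TA-like, the second 86.5% ISC-like, the third 72.9% enterocyte-like, and the last pair wholly enterocyte-like. From the first bin to the second, Mki67 went from 364 to 106 CPM and Olfm4 from 397 to 428 (means of 3 libraries). The order thus starts at cycling cells and then reaches ISC-like cells, so it is not the path from crypt base to villus. Last against first bin compares enterocyte-like with mainly TA-like cells. Klf2, Klf5, Klf9, Klf10 and Klf13 were lower in the last bin than in the first in 3 of 3 libraries, and Klf4 was higher in 3 of 3. Klf3 and Klf6 were lower in 1 library and higher in the other two.

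Klf2 had the steepest course. It stood at 79.1, 60.1 and 66.4 CPM in the first bin, 42.1, 28.2 and 22.2 in the third and 11.1, 12.3 and 6.35 in the last, a 6.9-fold difference of means (log2 -2.83 ± 0.55 SD, n = 3). Most of it lay between the second bin (mean 69.2 CPM) and the fourth (10.5). Klf9 went from 54.1 to 14.95 CPM (3.62-fold), Klf10 from 50.6 to 17.1 (2.96-fold) and Klf13 from 82.8 to 32.7 (2.53-fold), all as means of 3 libraries.

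Klf5 and Klf4 crossed. Klf5 stood at 286 CPM in the first bin, 243 in the third and 138 in the last (2.08-fold). Klf4 stood at 71.7 CPM in the first bin, 65.1 in the second, 80.9 in the third, 119 in the fourth and 195 in the last (2.71-fold, log2 1.45 ± 0.48 SD, n = 3). The early course of Klf4 differed between libraries, since in Arid3a cKO 1 the third bin (67.4 CPM) was below the first (84.4), while in the other two it was above. In the last bin Klf4 was above Klf5 in each library, at 161, 209.9 and 213 against 151, 125 and 137 CPM. Klf6 was highest in the middle bin (358 CPM, against 289.9 in the first and 279 in the last), and so was Klf3 (120.3 CPM, against 101 and 96.5). With Ccl20-led cells included, an order chosen after seeing the data, Klf2, Klf5, Klf9, Klf10 and Klf13 were again lower in the last bin in 3 of 3 libraries. The course before it changed, since Klf5 was then highest in the third bin (292 CPM, against 286 in the first). So was Klf10 (60.2 CPM, against 50.6), and Klf4 was lowest in that bin (53.9 CPM), all as means of 3 libraries.

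**Figure D3:**
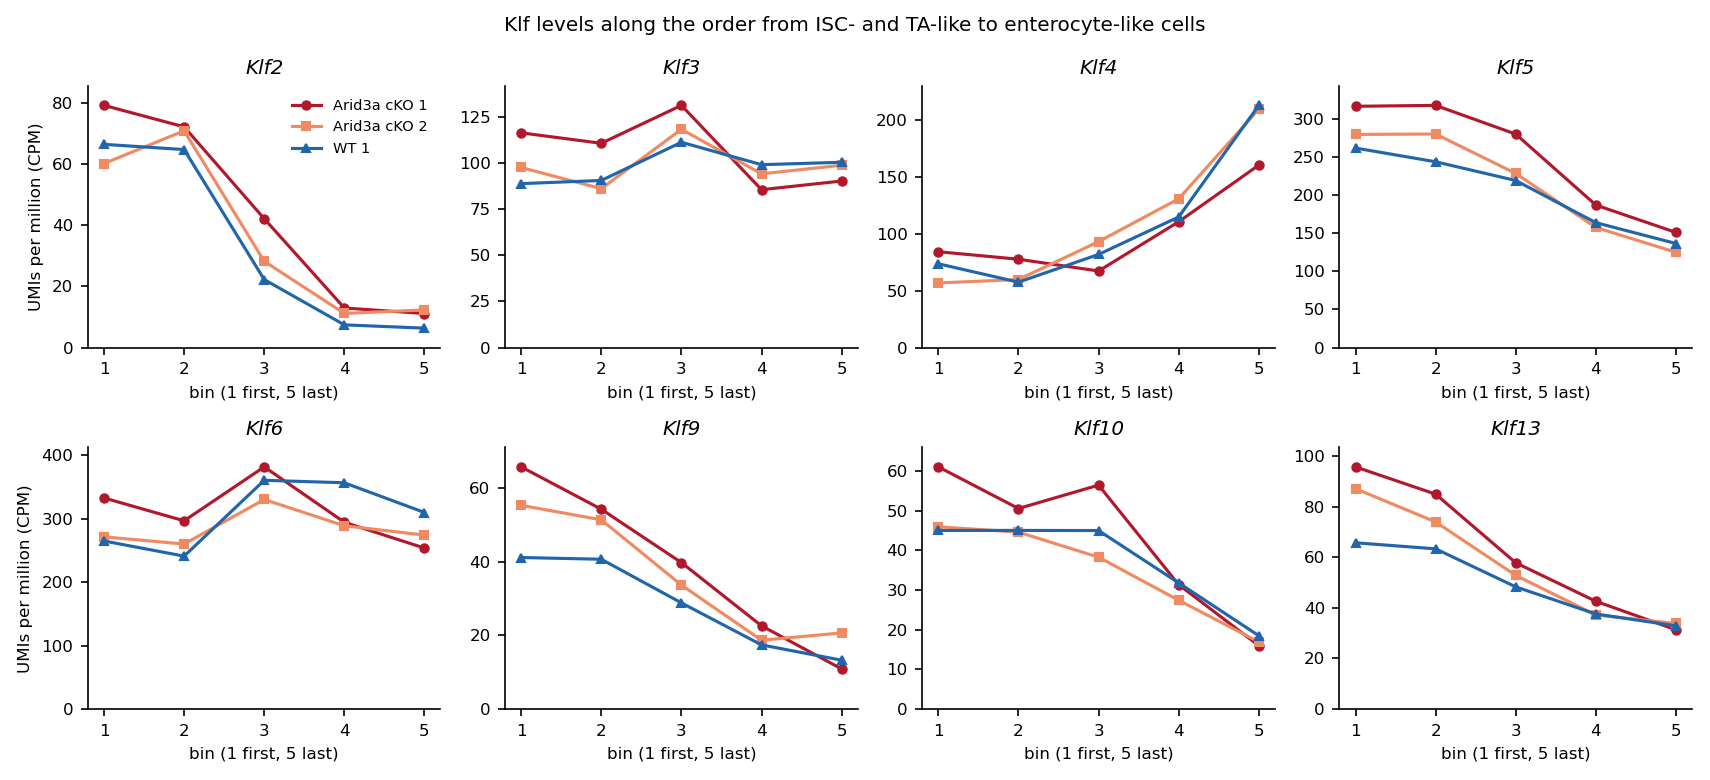
CPM of each Klf gene (vertical axes, from 0) in 5 bins of cells ordered from ISC- and TA-like to enterocyte-like, 1 line per library. Klf2 drops between bins 2 and 4 in all 3 libraries, and from the third bin to the last Klf5 declines and Klf4 climbs in each.

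Pearson's r of log2(CPM + 5) was taken over 27 sums of 9 classes in 3 libraries. The 9 include the unnamed Gm42418-led cluster, and its part in the values was not tested. By this r, the genes most like each member outside the family were as follows. Klf5 was most like Vdac1 (r = 0.97) and Dnajc7 (0.96), Klf6 like Arhgap32 (0.97) and Smad7 (0.97), and Klf13 like Eif3c (0.97) and Snw1 (0.97). Klf3 was most like Chmp4b (0.955) and Ltbr (0.95), Klf9 like R3hdm4 (0.95) and Idi1 (0.94), and Klf10 like Ralgapa2 (0.93) and Junb (0.92). Klf4 was nearest to Mfsd6 (0.91) and Tspan13 (0.90), and Klf2 to Ttr (0.90) and Asns (0.89). Sums of one library share its depth, and the Paneth-like sums were low for all 8 members. Within the family r ran from 0.06 (Klf4 with Klf5) to 0.89 (Klf5 with Klf13).

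To ask whether loss of Arid3a moved the family, summed counts of the cKO libraries were compared with WT by the edgeR quasi-likelihood test with Benjamini-Hochberg adjustment over all genes. The spread is estimated from the cKO libraries alone, with 1 residual degree of freedom and information shared across genes, and WT is assumed to vary like them. An exact permutation test of a single value could not go below 0.333. Over all epithelial cells 0 of 8 members passed the threshold of 0.05, as did 0.696% of 16670 genes. By unadjusted p 3 members (Klf5, Klf9 and Klf13) were under 0.05, against 11.0% of genes, and DESeq2 likewise called 0 and had 3 under an unadjusted 0.05.

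The member nearest to the threshold over all cells was Klf9. It stood at 42.0 and 39.3 CPM in the cKO libraries and 31.4 in WT. Both cKO values were above WT, and the cKO libraries were closer to each other than to WT (log2 fold change 0.41 ± 0.10 SE, 95% interval 0.17 to 0.64, edgeR adjusted p = 0.179). Without the filter on low counts it passed (edgeR adjusted p = 0.0339). With each cluster given equal weight the log2 fold change was 0.26, a value with no test. Klf13 stood at 62.6 and 56.5 CPM against 48.8 (log2 fold change 0.32 ± 0.10, edgeR adjusted p = 0.297), and Klf4 at 115 and 126 against 126 (-0.02 ± 0.10, 95% interval -0.25 to 0.20). WT lay below both cKO libraries for 5 of 8 members, as it did for 30.0% of genes, and above both for 1, as for 43.9%.

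ISC- and TA-like cells again had 0 of 8 members called, against 0.911% of 14487 genes, with 2 (Klf9 and Klf13) under an unadjusted 0.05, as were 6.64% of genes, and DESeq2 gave 0 and 2. Klf9 stood at 59.8 and 52.4 CPM in the cKO libraries and 39.1 in WT (log2 fold change 0.53 ± 0.15 SE, 95% interval 0.21 to 0.84, edgeR adjusted p = 0.132). It passed with cells of at least 500 genes and up to 25% mitochondrial UMIs (adjusted p = 0.0425) and at resolution 0.8 (adjusted p = 0.0493). Klf13 stood at 89.1 and 80.4 CPM against 62.6 (0.44 ± 0.15, edgeR adjusted p = 0.253). All 8 log2 fold changes were above 0 with a median of 0.21, beside 50.03% of genes above 0 and a median of 0.00. Without Arid3a cKO 1, Klf4 (-0.052) and Klf10 (-0.014) were below 0. WT lay below both cKO libraries for 6 members, as for 32.5% of genes, and above both for 0, against 35.3%.

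In goblet-like cells 0 of 8 members were called, against 1.22% of 11060 genes. Klf2, Klf9 and Klf13 were under an unadjusted 0.05 in edgeR, as were 8.25% of genes, and DESeq2 called 0 members and had 0 under an unadjusted 0.05. Klf2 stood at 124 and 80.5 CPM in the cKO libraries and 71.4 in WT (log2 fold change 0.52 ± 0.18 SE, edgeR adjusted p = 0.164), and Arid3a cKO 2 was nearer to WT than to Arid3a cKO 1. Klf9 stood at 61.7 and 54.2 CPM against 41.2 (0.50 ± 0.18, edgeR adjusted p = 0.195). Klf4, the leading member there, had a log2 fold change of 0.20 (95% interval -0.16 to 0.56). WT lay below both cKO libraries for 7 of 8 members, as for 31.7% of genes, and above both for 0, against 36.3%.

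In enterocyte-like cells 0 of 8 members were called, against 0.437% of 12585 genes, with 1 (Klf2) under an unadjusted 0.05, as were 9.98% of genes, and DESeq2 gave 0 and 1. Klf2 stood at 18.6 and 13.6 CPM in the cKO libraries and 9.86 in WT, from 501, 286 and 216 UMIs. Both cKO values were above WT, and their counting intervals (17.0 to 20.3 and 12.04 to 15.2) did not reach that of WT (8.59 to 11.3). Within the 3 larger enterocyte clusters both cKO values were again above WT, but 1 cKO interval overlapped that of WT in each. The Dnase1-led cluster held 11.9, 14.8 and 9.02 CPM, the Ms4a18-led cluster 28.4, 16.6 and 13.9, and the S100g-led cluster 14.9, 6.04 and 4.09. The log2 fold change was 0.73 ± 0.20 SE (95% interval 0.26 to 1.19, edgeR adjusted p = 0.304). This call depended on the processing, since Klf2 passed under 6 other settings of filter, cell limit, doublet removal or clustering, with edgeR adjusted p from 8.70e-05 to 0.0287. In one of them, without integration, 1216 cells led by Ms4a18 and Car4 stayed unnamed and were not counted as enterocytes. Klf2 did not pass with other scaling (edgeR adjusted p = 0.149), without lymphocyte-marked cells (0.0888) or with mitochondrial UMIs left out (0.282). With each cluster given equal weight the log2 fold change was 1.17, a value with no test, in which the Isg15-led cluster of 58 cells had 0 UMIs in WT. Beside it in enterocytes, ISC markers summed to 41.5, 25.4 and 33.3 CPM, TA markers to 91.6, 69.2 and 78.5 and enteroendocrine markers to 46.9, 61.7 and 99.9, and their part in the result was not tested. The other 7 members had log2 fold changes from -0.20 (Klf6) to 0.19 (Klf9). WT lay below both cKO libraries for 2 members, as for 33.0% of genes, and above both for 2, as for 39.3%.

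The difference between classes was tested by the interaction of genotype with class, enterocyte-like against ISC- and TA-like cells. By edgeR 0 of 8 members were called, against 0.142% of 14752 genes, 3 (Klf2, Klf6 and Klf13) were under an unadjusted 0.05, as were 5.37% of genes, and DESeq2 gave 0 and 0. For Klf2 the cKO-to-WT difference was larger in enterocytes by 0.55 ± 0.17 on the log2 scale (edgeR adjusted p = 0.708). It passed once the top 5% of each library by doublet score were removed (0.76 ± 0.19, edgeR adjusted p = 0.0174).

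In Ccl20-led cells, a comparison chosen after the levels had been seen, 1 of 8 members passed, against 0.941% of 11374 genes, and 3 (Klf2, Klf3 and Klf6) were under an unadjusted 0.05, as were 10.6% of genes. This member was Klf2, at 51.5 and 45.7 CPM in cKO and 19.5 in WT, from 556, 360 and 136 UMIs in 342, 203 and 212 cells. The counting intervals of the cKO values (47.3 to 55.9 and 41.1 to 50.7) overlapped, and both lay above that of WT (16.3 to 23.0). The log2 fold change was 1.35 ± 0.15 SE (95% interval 1.02 to 1.67, edgeR adjusted p = 0.000117), and DESeq2 called it as well (adjusted p = 0.000893). Without Arid3a cKO 1 it was 1.26 and without Arid3a cKO 2 it was 1.42. Beyond these, only other scaling and no filter on low counts were tried for this comparison. Other cell limits, doublet removal and other clusterings were not run for it. Without integration no cluster was named Ccl20-led, and 1216 cells led by Ms4a18 and Car4 stayed unnamed. WT lay below both cKO libraries for all 8 members, as for 32.2% of genes (above both for 0, against 40.7%), and the other 7 had log2 fold changes of 0.22 to 0.32.

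**Figure D4:**
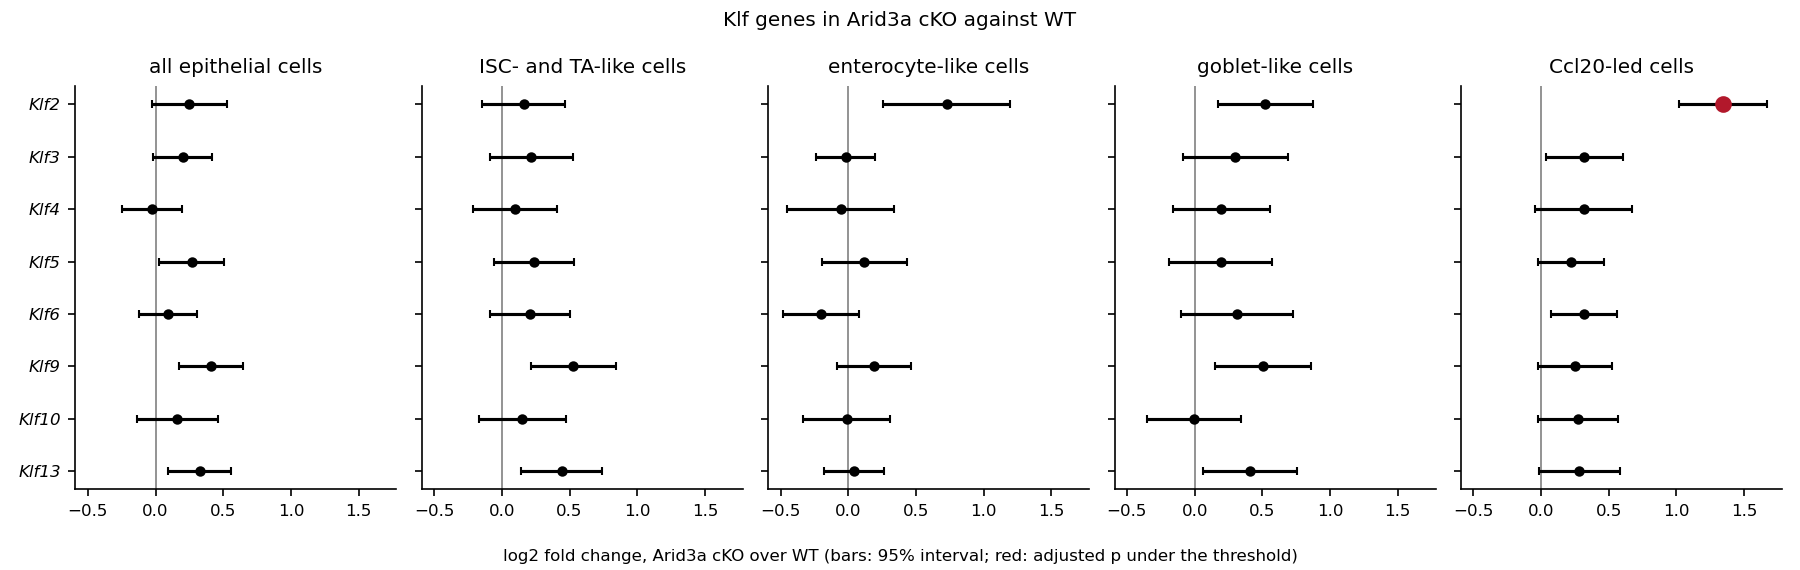
Log2 fold change of each Klf gene in Arid3a cKO over WT (horizontal axis) in 5 sets of cells, with 95% intervals from edgeR and 2 cKO libraries against 1 WT library. Red marks the adjusted p under 0.05, which is Klf2 in Ccl20-led cells.

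**Figure D5:**
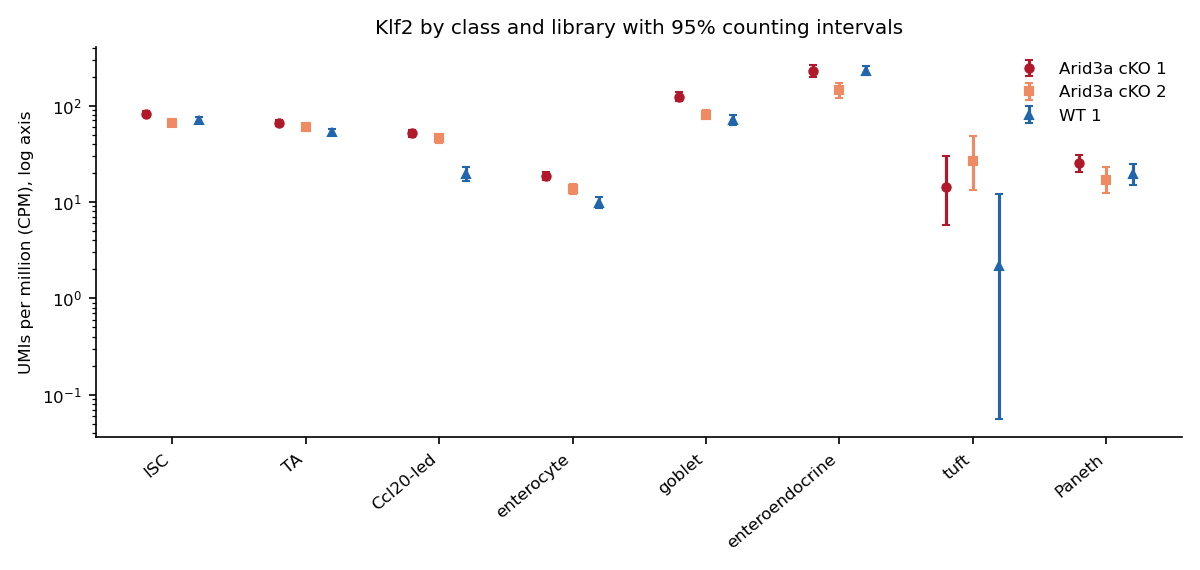
Klf2 CPM (log axis) by class and library, with 95% Poisson intervals that cover counting error only. In Ccl20-led cells WT, at 19.5 CPM, lies below both cKO libraries, while in enteroendocrine-like cells WT matches Arid3a cKO 1.

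Other gene groups also differed between cKO and WT in Ccl20-led cells. Immediate early genes, which respond to growth factors and to dissociation, summed in Ccl20-led cells to 7620 and 6462 CPM in the cKO libraries and 4884 in WT. Of 14 tested there, 7 rose and 0 fell by the edgeR test (DESeq2 called 3), with a median log2 fold change of 0.55 beside 0.00 over all genes. Of all 11374 genes tested in these cells, edgeR called 0.941%. Atf3 (625 and 383 CPM against 238) and Fos (1477 and 1253 against 914) were among them, with Dusp1 and Ier2. Heat shock genes went the other way, at 2547 and 2803 CPM against 3989 in WT, and 4 of 8 fell (Hsph1, Hsp90aa1, Hspa8 and Hspa1b), while DESeq2 called 2 of the list. The part of these groups in the Klf2 result was not tested.

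Across the other comparisons the same groups were compared with WT. Hsph1, a chaperone cofactor, was lower and passed in all 4. It fell by 1.80 on the log2 scale over all cells and fell by 2.49 in enterocytes. Hsp90aa1 fell over all cells, in ISC- and TA-like cells and in goblet-like cells, and Hspa8, Hspa1b and Hspa1a fell in goblet-like cells. The immediate early list summed to 8080, 6485 and 6429 CPM in ISC- and TA-like cells, 7827, 6694 and 5962 in goblet-like cells and 4507, 4344 and 4477 in enterocytes. Atf3 rose in ISC- and TA-like cells (420.3 and 226 CPM against 184) and in goblet-like cells (406 and 310.0 against 210.4) by edgeR, and DESeq2 called it in neither. No other immediate early gene passed in these 4 comparisons. Over all cells edgeR called 0 of 7 glucocorticoid-responsive genes and 0 of 8 TGF-beta pathway genes. It also called 0 of 12 cofactors and ubiquitin ligases and 0 of 10 other KLF and SP factors, beside 0.696% of all genes. Under an unadjusted 0.05 were 2, 0, 1 and 1 in that order, beside 11.0% of all genes, and DESeq2 called 0 of each. In the other comparisons, Ccl20-led cells and the interaction included, edgeR called 0 genes of these 4 lists. From 0 to 3 of a list were under an unadjusted 0.05 there. Of all genes 0.142% to 1.22% were called there, and 5.37% to 10.6% were under an unadjusted 0.05. DESeq2 called 1 gene of these lists there, a glucocorticoid-responsive gene in enterocytes.

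Markers of lymphocytes and endothelial cells were summed as well. The 17 lymphocyte markers summed to 9.26 and 24.5 CPM in the cKO libraries and 43.3 in WT over all cells and to 2.13, 3.55 and 2.29 CPM in Ccl20-led cells, where 10 of 17 had no UMI. Enteroendocrine markers summed there to 27.9, 35.1 and 50.4 CPM. Enterocyte markers summed to 14092, 14467 and 13878 CPM in Ccl20-led cells. This lay between ISC- and TA-like cells (2896, 4255 and 3750) and enterocyte-like cells (86865, 94435 and 83034). ISC markers summed to 60.4, 58.0 and 58.9 CPM in Ccl20-led cells, against 1427, 1244 and 1246 in ISC- and TA-like cells. Of 6 endothelial markers 5 had no UMI in Ccl20-led cells, and their sum was at most 0.573 CPM. Without the cells that held at least 2 lymphocyte-marker UMIs, Klf2 over all cells stood at 50.3 and 42.0 CPM against 40.04. The part of other cell types in the genotype differences was not tested. Fewer cells of a type and less RNA per cell were not separated in sums over all cells.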

How the data were processed

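The authors deposited raw UMI counts per gene and barcode, made with Cell Ranger 5.0 per the file headers. For these libraries the build behind the counts is not given in the sources used here. The study's limits on cells were applied (1000 genes, 15% mitochondrial UMIs). Doublets were kept (Scrublet marked 110 of 5594 cells). Cells were integrated in Seurat 5.3.0 (R 4.3.3) by canonical correlation on 3000 features, with 2000 features for 30 principal components, at resolution 0.3. Members and listed genes other than markers (78 genes) were left out of clustering. A cluster was named for the class with most markers (at least 3) among its top 50 genes. Failing that, it took the class with the highest proportion of markers raised 1.5-fold or more, given 3 markers, 50% of the list and a median depth of 50% of its libraries'. This naming rule was set after clusters were seen. Sums per library were tested with edgeR 4.0.16 (TMM scaling, filterByExpr, Benjamini-Hochberg) and with DESeq2 1.42.0 as an alternative, and the code was tested on simulated data. Poisson intervals (95%) cover counting error only. The p-values measure only the spread between the cKO libraries. Total UMIs of kept cells were 58169310 to 70922480 per library.

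Members and gene lists were chosen with earlier results of these data known. Named were all 8 members, Arid3a, up to 4 called genes of a list per comparison by smallest adjusted p, and for each member the 2 most alike genes of at least 20 CPM. Hspa1a and the highest and undetected members of the KLF and SP list were named after values were seen. Promoters came from RefSeq (GRCm38.p6) for 6 of 8 members, and positions from GENCODE M21, which held 99.5% of identifiers. Alternatives changed scaling, filters, cell limits, doublet removal or clustering, gave each cluster equal weight, or left out a library.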

Additional observations from a re-analysis of the deposited data

Results flagged for a closer look

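Klf2 was also higher in cKO than in WT in barcodes that the main comparisons do not use, a signal above the control level. These barcodes had at least 1000 genes and over 15% mitochondrial UMIs. They numbered 1937 and 2077 in the cKO libraries and 3206 in WT. They were not split into classes, and the part of cell mix in the difference was not tested. Scaled to UMIs of nuclear genes, Klf2 was at 20.2 CPM (95% counting interval 17.8 to 22.8) and 19.2 CPM (16.98 to 21.6) in the cKO libraries by number. The WT library held 13.4 CPM (11.9 to 14.995). The cKO mean was 1.47-fold that of WT, and both cKO intervals lay above that of WT. By the same comparison of intervals, Klf6 was the one member with both cKO libraries below WT, at 448 (437 to 459.9) and 491 CPM (479 to 502.5) against 533 (523 to 542). The intervals cover counting error only, and no test across libraries was made. The share of all genes with both cKO intervals above or below that of WT was not computed, so neither difference can be set against it.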

How the results depend on the processing

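Under settings other than leaving out a library, member log2 fold changes took the opposite sign in enterocyte-like cells alone, none called, and from reported values of at most 0.04 in size. These were Klf10 at 0.023 with a 10% mitochondrial limit and 0.15 with Ccl20-led cells included, Klf13 at -0.0115 with 500 genes and a 25% limit, -0.015 with a 10% limit and -0.094 with each cluster given equal weight, and Klf3 at 0.089 with Ccl20-led cells included. The count of members called went from 0 to 1 over all cells without the filter on low counts (Klf9). In enterocyte-like cells it went from 0 to 1 (Klf2) without that filter, with either other cell limit, without the highest doublet scores, at resolution 0.8, without integration and with Ccl20-led cells included. In ISC- and TA-like cells it went from 0 to 1 (Klf9) with 500 genes and a 25% limit and at resolution 0.8. In the interaction it went from 0 to 1 (Klf2) without the highest doublet scores and with Ccl20-led cells included. The cause was not tested. Settings with Ccl20-led cells were chosen after seeing the data. The class with the highest mean stayed for 5 of 8 members with 500 genes and a 25% limit, and for 5 at resolution 0.8. Klf6, Klf10 and Klf13 moved in both. Leaving out a cKO library leaves 1 against 1, a value with no test, and 9 of 41 such ranges of log2 fold change spanned 0. For Klf2 in enterocytes the range was 0.51 to 0.90, and for Klf9 over all cells 0.37 to 0.44. With equal weight for each cluster, a value with no test, Klf2 in enterocytes went from 0.73 to 1.17, and over all cells Klf9 went from 0.41 to 0.26, Klf3 from 0.20 to 0.11 and Klf13 from 0.32 to 0.23. Equal weighting was not run for the interaction. No paired analysis was made, because the labels used here give no pairing of cKO with WT libraries. With a single WT library, genotype and library cannot be told apart.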
